A study of Mus musculus with 36 samples.

Results

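The mitochondrial genome (mtDNA) encodes 13 proteins, and 6 of them are outside complex I: the cytochrome c oxidase subunits mt-Co1, mt-Co2 and mt-Co3, cytochrome b (mt-Cytb), and the ATP synthase subunits mt-Atp6 and mt-Atp8. These 6 genes were taken by name from the mitochondrial chromosome (MT), whose 37 genes are in all 6 count tables of the series, and each was found in every table. The tables hold RNA-seq read counts from mouse cauda spermatozoa, round spermatids and morulae, and from liver, gastrocnemius muscle and epididymal white adipose tissue (eWAT), with 6 libraries each and 36 in all. The labels give the genotype of all animals as C57BL/6 wildtype. The spermatozoa came by swim-up from C57BL/6N males that ate a high-fat diet (HFD) or a low-fat diet (LFD) for 2 weeks from 6 weeks of age, and the round spermatids, purified from testis, came from males fed in the same way. The morulae came from in vitro fertilisation with sperm of HFD-fed or LFD-fed males and oocytes of unexposed, superovulated females. Liver, muscle and eWAT were taken from chow-fed sons of HFD-fed fathers that were tolerant or intolerant to glucose. Diet could be compared in spermatozoa and morulae, with 3 libraries per diet, and the other tables were each taken as 1 group, since their column names give neither diet nor tolerance. Nothing in the labels says which libraries come from separate animals or pools, so p-values measure the spread between libraries only. In 3 of the 6 morula samples the free-text description gives the opposite diet to the title and the treatment field. For the samples the title was followed. The diet of each morula library was read from the letters MH or ML in its column name, which is not tied to a sample title.

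Cytochrome c oxidase (complex IV) passes electrons from cytochrome c to oxygen, and its catalytic core is made of the 3 mtDNA-encoded subunits. mt-Co1 carries the haem and copper centre where oxygen is reduced, mt-Co2 receives the electrons from cytochrome c through its own copper centre, and mt-Co3 is the remaining core subunit. Cytochrome b holds the b-type haem groups of complex III (the bc1 complex). For ATP synthase, mt-Atp6 forms the proton path beside the rotor ring and mt-Atp8 is a short membrane subunit of the same enzyme. mtDNA is transcribed as long precursors that span many genes, and the messages are released mostly by removal of the tRNAs that lie between them. In mature spermatozoa the mitochondria are packed around the midpiece of the tail.

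The 6 genes lie on the plus strand of MT in build GRCm38, and 4 of them are neighbours. The gene mt-Co1 (ENSMUSG00000064351) spans MT:5328-6872 and mt-Cytb (ENSMUSG00000064370) spans MT:14145-15288. Between them lie mt-Co2 (ENSMUSG00000064354, MT:7013-7696), mt-Atp8 (ENSMUSG00000064356, MT:7766-7969), mt-Atp6 (ENSMUSG00000064357, MT:7927-8607) and mt-Co3 (ENSMUSG00000064358, MT:8607-9390). A tRNA gene, mt-Tk, separates mt-Co2 from mt-Atp8, whereas the 3 genes from mt-Atp8 to mt-Co3 run on with no tRNA between them. The last 43 bases of mt-Atp8 are also the first 43 of mt-Atp6 (MT:7927-7969), and mt-Atp6 and mt-Co3 share 1 base. The shared stretch is printed because reads from it belong to both genes. Its first capitals are the start codon of mt-Atp6 and its last capitals the stop codon of mt-Atp8.
mt-Atp8 and mt-Atp6: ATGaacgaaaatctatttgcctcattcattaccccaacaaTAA

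Parts of mtDNA have been copied into nuclear chromosomes, and 4 of the 6 genes have an annotated nuclear copy, taken as 95% identity or more across 80% or more of the shorter sequence. On the minus strand of chromosome 1, within chr1:24613189-24616197, lie 4 unprocessed pseudogenes in the order of the mitochondrial genes. Gm28661 matched mt-Co2 over 681 bases, Gm10925 matched mt-Atp6 over 678 and Gm28437 matched mt-Co3 over 783, each at 100% identity. Gm29216 matched the last 483 bases of mt-Co1 with 1 mismatch. On chromosome 2, Gm13340 matched all 1545 bases of mt-Co1 at 97.6% identity and Gm13341 matched mt-Co2 at 95.9%. No annotated transcript outside MT passed the rule for mt-Atp8 or mt-Cytb, whose nearest matches were Gm28925 at 81.4% over 167 bases and Gm11410 on chromosome 4 at 92.9% over 1142. The 233 bases between Gm28661 and Gm10925 carry no annotated gene and are as many as lie between the matching ends of mt-Co2 and mt-Atp6 on MT, the interval that holds most of mt-Atp8. The sequence of that interval on chromosome 1 was not analysed here.

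The following stretches show how little or how much a read can tell a member from its copy. All are from GENCODE M21 transcripts of GRCm38, printed 5′ to 3′ in the sense of the gene, with differing bases in capitals. The first pair is the only place where mt-Co1 (MT:6390-6423) and Gm29216 (chr1:24616155-24616188, minus strand) differ over their aligned bases, A1066T, counted from 1 at the first base of mt-Co1. The next line is the stretch that ends the match of mt-Co2 (MT:7634-7693) and Gm28661 (chr1:24614885-24614944, minus strand), which is the same in both. The last pair is the stretch that ends the match of mt-Cytb (MT:15228-15287) and Gm11410 (chr4:80005072-80005131), with 5 differences.
mt-Co1: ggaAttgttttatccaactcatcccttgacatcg
Gm29216: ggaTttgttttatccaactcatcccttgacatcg
mt-Co2 and Gm28661: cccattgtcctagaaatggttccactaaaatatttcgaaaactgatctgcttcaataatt
mt-Cytb: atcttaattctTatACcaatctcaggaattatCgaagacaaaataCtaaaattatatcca
Gm11410: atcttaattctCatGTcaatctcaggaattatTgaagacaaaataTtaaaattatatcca

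Over windows as long as the reads, 75 bases for the germ cell and embryo libraries and 50 for the 3 tissues, the members fell into separate classes. Of mt-Co2, 607 of 610 windows of 75 bases occurred unchanged in an annotated nuclear transcript, of mt-Atp6 604 of 607 and of mt-Co3 709 of 710. Of mt-Co1, 586 of 1471 windows did (39.8%), among them the last window of the gene. None of the 1070 windows of mt-Cytb and none of the 130 of mt-Atp8 did. With windows of 50 bases the shares were 51.1% for mt-Co1, 100% for mt-Co2, 99.5% for mt-Atp6 and 99.9% for mt-Co3, and still 0 for mt-Cytb and mt-Atp8. Each window stands for a single read inside a gene. Reads of round spermatids and morulae were paired, and neither mates nor reads that run past a gene end were considered. How the authors' counting treated reads that map to more than 1 place is not given in the sources used here.

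**Figure D1:**
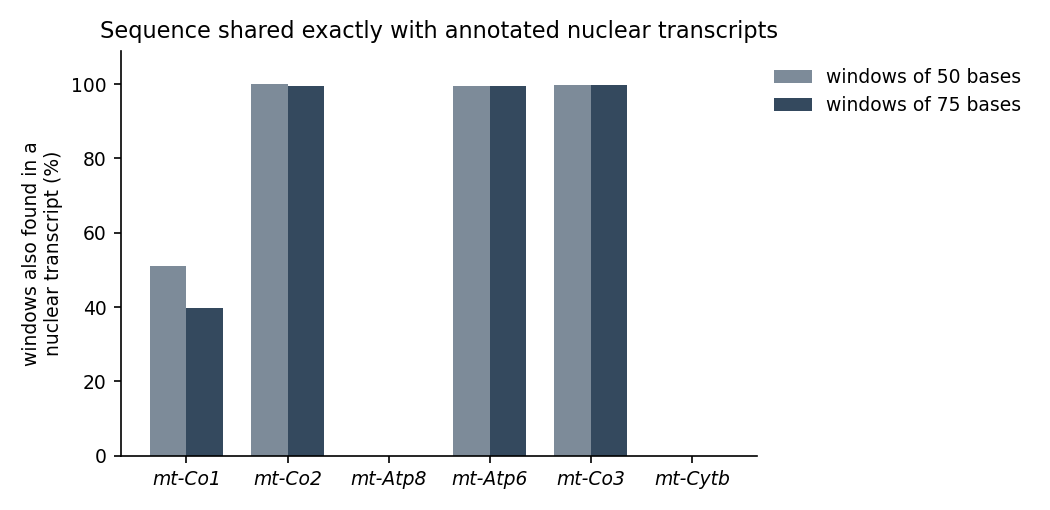
Percent of windows of 50 or 75 bases of each gene (vertical axis, from 0) that occur without a mismatch in an annotated transcript outside mtDNA. The bars stand near 100% for mt-Co2, mt-Atp6 and mt-Co3, at 51.1% and 39.8% for mt-Co1, and at 0 for mt-Atp8 and mt-Cytb.

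Total counts were 2560219 to 4062321 per library in spermatozoa, 20138842 to 31056066 in round spermatids and 11471251 to 12153141 in morulae. In the tissues they were 2036237 to 2552454 in liver, 1338149 to 4055537 in eWAT and 369772 to 2749920 in muscle, where the library of 369772 counts stands apart as the shallowest. Levels are given as CPM, counts scaled to the total of the library, or as CPM per kb of gene where genes are compared. Genes of mtDNA took 43.5% to 84.3% of counts in spermatozoa, 1.96% to 2.38% in round spermatids, 22.8% to 26.9% in morulae, and 15.1% to 45.5% in the tissues. Defining markers were read in every table they should mark: all 10 sperm and spermatid markers had counts in spermatozoa and in round spermatids, as did all 10 morula markers in morulae and all 8 markers each of liver, fat and muscle in their tissues. Spermatozoa also held epididymal epithelium markers (8 of 10 with counts, summed level 1597 to 23621 CPM), most in the LFD library of 2560219 counts. Libraries of spermatozoa, round spermatids and morulae were made with the Nextera kit and those of the 3 tissues with a kit that reads the 3′ ends of polyadenylated RNA, so that kit and tissue cannot be told apart between these sets. The paper states removal of rRNA (Ribo-minus) for round spermatids and does not state it for spermatozoa or morulae. This step and the cell type therefore cannot be told apart, also for the share of mtDNA. In bulk samples fewer cells of a type and less RNA per cell cannot be told apart either.

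Across the series mt-Co1 and mt-Cytb were counted in all 36 libraries, and the other members were counted in round spermatids and morulae but were at or near 0 elsewhere. In spermatozoa, mt-Co1 had 18993 to 58063 counts and mt-Cytb 13551 to 47489. In the same libraries mt-Co2 and mt-Atp8 had no count in any of the 6, mt-Atp6 had 1 count in the HFD library of 3679276 counts, and mt-Co3 had 1 count there and 1 in the LFD library of 2913166. Over the 19259820 counts of the 6 sperm libraries together, a count of 0 allows up to 3 counts, or 0.156 CPM, for mt-Co2 and for mt-Atp8. In liver, eWAT and muscle, mt-Co2, mt-Atp8, mt-Atp6 and mt-Co3 had a count of 0 in all 18 libraries, which allows up to 0.223 CPM in liver, 0.169 in eWAT and 0.305 in muscle. These limits cover counting error only. For mt-Co2, mt-Atp6 and mt-Co3 nearly every possible single read inside the gene also fits a nuclear copy, as above. By contrast, no annotated transcript shares a window with mt-Atp8. The part of the counting in these zeros was not tested.

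**Figure D2:**
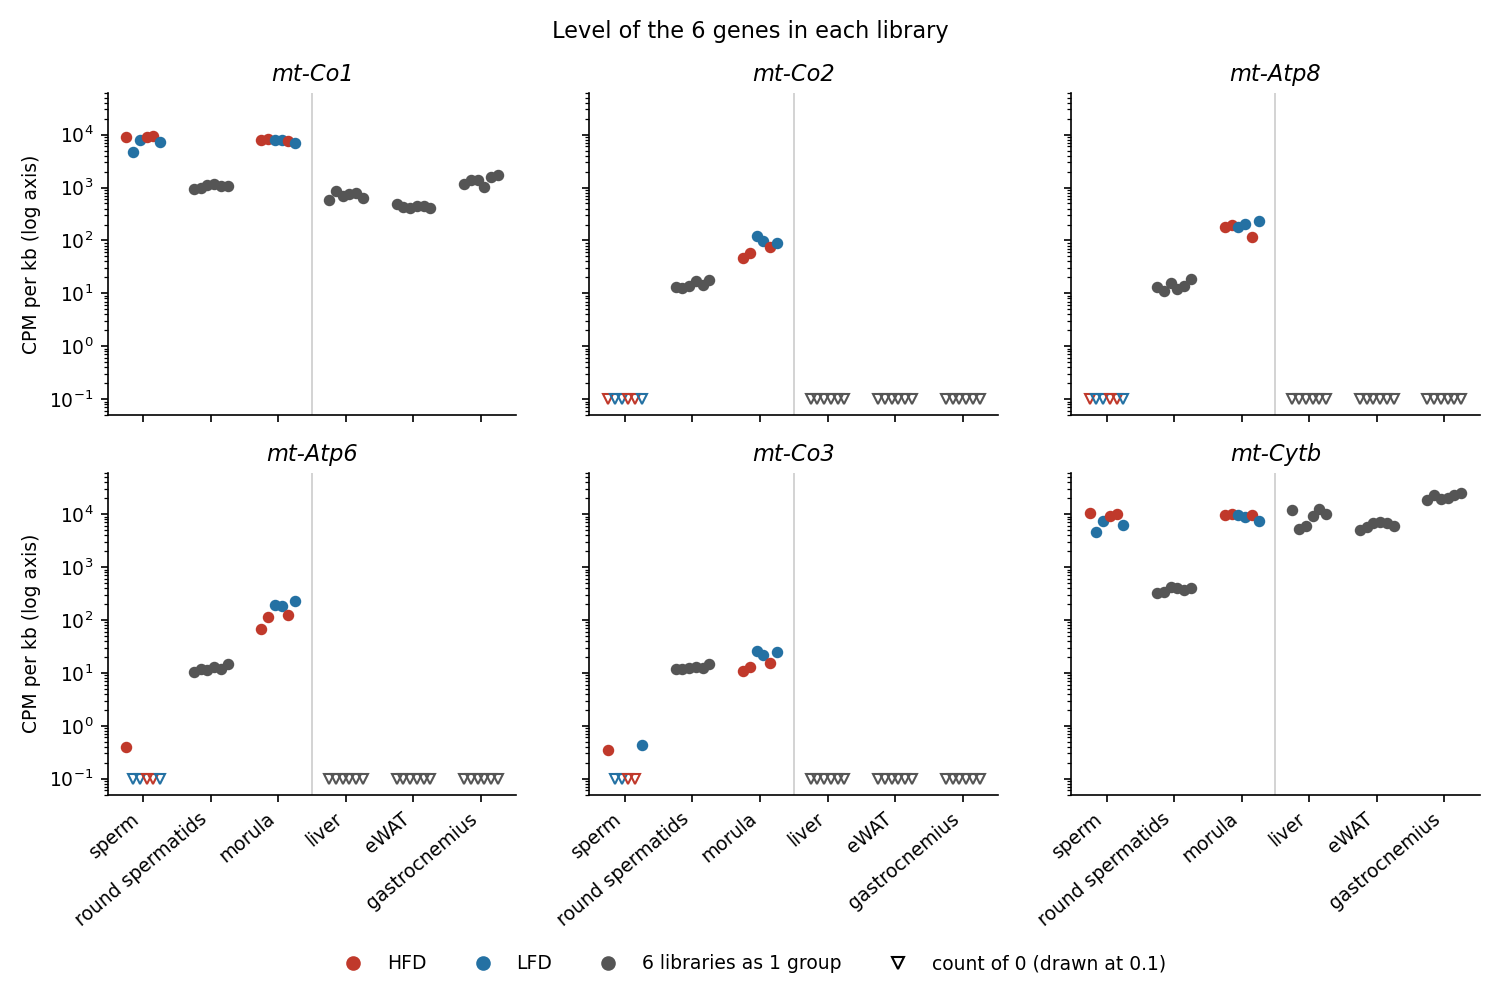
CPM per kb (vertical log axis) of each gene in each of the 36 libraries, by table, with HFD and LFD marked in spermatozoa and morulae and open triangles for a count of 0, drawn at 0.1. The genes mt-Co1 and mt-Cytb lie at 327 or more in every library, and the 4 neighbours mt-Co2, mt-Atp8, mt-Atp6 and mt-Co3 lie at 0 or under 1 in spermatozoa and at 0 in the 3 tissues right of the line. Tissue counts come from 3′ ends and do not follow gene length.

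Round spermatids had all 6 genes, with mt-Co1 far above the rest. Its level was 1052 ± 87.1 CPM per kb (mean ± SD, n = 6), against 380 ± 39.95 for mt-Cytb. The 4 neighbours lay close together, at 14.9 ± 2.18 CPM per kb for mt-Co2, 13.95 ± 2.64 for mt-Atp8, 12.1 ± 1.46 for mt-Atp6 and 12.5 ± 1.07 for mt-Co3. In this table mt-Co1 had 32867 to 50233 counts per library and mt-Atp8, the shortest gene, 56 to 86. The order of mt-Co1 over mt-Cytb over the 4 neighbours was the same in all 6 libraries, while the ranges of the 4 neighbours overlapped each other. These levels count the gene alone. Of gene and chromosome 1 copy together, mt-Co2 held 50.7% to 61.1% of counts, mt-Atp6 45.1% to 53.5% and mt-Co3 56.1% to 61.9%. That the 4 lay close together therefore rests on how reads were divided.

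In morulae the ranges of mt-Cytb and mt-Co1 overlapped and the 4 neighbours differed among themselves. mt-Cytb stood at 9179 ± 950 CPM per kb and mt-Co1 at 7764 ± 494 (n = 6, both diets). The ATP synthase pair followed, mt-Atp8 at 185 ± 38.6 and mt-Atp6 at 151 ± 58.7, with overlapping ranges. The oxidase subunits were lower, mt-Co2 at 81.1 ± 27.2 and mt-Co3 at 18.5 ± 6.21 CPM per kb. The highest mt-Co3 library, at 25.7, lay below the lowest mt-Co2 library, at 46.4. These levels count the gene alone. Of gene and chromosome 1 copy together, mt-Co2 held 30.1% to 42.2% of counts, mt-Atp6 23.4% to 32% and mt-Co3 40.1% to 49.4%. No such copy is annotated for mt-Atp8, so its place among the 4 rests on how reads were divided.

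Compared with spermatozoa, whose near-zero counts were known when the genes were chosen and are therefore only described, the 4 neighbours had higher counts in both other tables as deposited. mt-Co2 averaged 55.5 CPM in morulae, at least 356-fold over the 0.156 CPM that the sperm libraries together allow, and 10.2 CPM in round spermatids, at least 65.3-fold. mt-Atp8 was at least 242-fold and 18.3-fold higher, in the same order. For mt-Co3 the 2 sperm counts give a ratio of 139 in morulae (95% Poisson interval 38.6 to 1151) and of 94.7 in round spermatids (26.2 to 782). For mt-Atp6 the single count in sperm gives 1985 in morulae (356 to 78386) and 158 in round spermatids (28.4 to 6260). These bounds and intervals cover counting error of the sperm counts only, not the spread between libraries, and are no test. For mt-Co2, mt-Atp6 and mt-Co3 these ratios rest on how reads were divided between a gene and its identical chromosome 1 copy. Gene and copy together stood for mt-Co2 at 7.90 to 20.04 CPM in sperm, 15.7 to 20.4 in round spermatids and 105 to 194.9 in morulae. For mt-Atp6 the sum was 12.8 to 22.9 CPM in sperm, 13.1 to 19.0 in round spermatids and 193.7 to 555 in morulae. For mt-Co3 it was 13.3 to 25.05, 14.9 to 18.4 and 21.1 to 42.5 CPM in the same order. So with the copies added all 3 overlapped between sperm and round spermatids, and of the 3 only mt-Co3 overlapped between sperm and morulae. The edgeR fit with the sums was run with TMM only, where the median of round spermatids over sperm was 1.23 over all genes. For this pair the log2 fold changes were -1.16 ± 0.40 for mt-Co2, -1.79 ± 0.41 for mt-Atp6 and -1.77 ± 0.38 for mt-Co3. Morulae over sperm gave 2.18 ± 0.41 for mt-Co2, 2.99 ± 0.43 for mt-Atp6 and -0.55 ± 0.37 for mt-Co3. Since the chromosome 1 sums in CPM overlapped, no direction is given between sperm and round spermatids, nor for mt-Co3 between sperm and morulae. For mt-Co2 none is given between sperm and morulae either, since its sum with Gm13341 overlapped. No such copy is annotated for mt-Atp8. Sperm reads were single-ended and the others paired-ended, so read layout and cell type cannot be told apart here.

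The fit of the 3 Nextera tables asked where the members differ in level between germ cells and embryo. It used edgeR's quasi-likelihood test with TMM scaling over 20345 genes and 18 libraries. Differences that involve round spermatids, here and below, cannot be told apart from the removal of rRNA stated for them. From round spermatids to morulae all 6 members rose (adjusted p under 0.05), where 86.6% of all genes tested passed in either direction. The log2 fold change was 4.89 ± 0.45 (SE) for mt-Cytb, 4.03 ± 0.24 for mt-Atp8, 3.95 ± 0.29 for mt-Atp6, 3.18 ± 0.38 for mt-Co1, 2.75 ± 0.25 for mt-Co2 and 0.86 ± 0.27 for mt-Co3 (adjusted p = 0.00608), beside a median of -1.36 over all genes. The smallest of the 6 values was that of mt-Co3. Scaled by library totals instead, it was 0.54 and no longer passed in edgeR's test (adjusted p = 0.134), and by an exact permutation test per gene it was 0.45 (adjusted p = 0.0701). With each gene summed with its chromosome 1 copy all 6 still rose, mt-Co3 by 1.22 ± 0.36 (adjusted p = 0.00394 in edgeR).

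Against spermatozoa, mt-Co1 and mt-Cytb were far lower in round spermatids and their difference in morulae depended on the scaling. In round spermatids the log2 fold change over sperm was -4.60 ± 0.40 for mt-Co1 and -6.17 ± 0.48 for mt-Cytb (adjusted p = 4.64e-09 and 7.97e-10 in edgeR's quasi-likelihood test), where 75.3% of genes passed. Scaled by library totals these values were -2.88 and -4.39, while the median of all genes moved from 1.24 to 2.40. In morulae, where 65.4% of genes passed, they were -1.42 ± 0.35 and -1.27 ± 0.39 with TMM (adjusted p = 0.00145 and 0.00677), but -0.02 and 0.19 with library totals (adjusted p = 0.983 and 0.399), as the median of all genes moved from 0 to 0.45. Without the 3 HFD sperm libraries they were -0.16 and 0.20, and neither passed in the edgeR fit. No direction is therefore given for mt-Co1 or mt-Cytb between spermatozoa and morulae.

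In the tissues mt-Cytb was highest in muscle and mt-Co1 followed the same order at a much lower level. mt-Cytb stood at 24770 ± 2699 CPM in gastrocnemius, 10532 ± 3454 in liver and 7117 ± 915 in eWAT (n = 6 each). The muscle libraries, at 21614 to 28339 CPM, did not overlap those of liver (6134 to 14297) or eWAT (5724 to 8163), while liver and eWAT overlapped. mt-Co1 stood at 2153 ± 420 CPM in gastrocnemius, 1103 ± 159 in liver and 676 ± 44.5 in eWAT, and no library of these 3 tables overlapped another table.

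In a joint edgeR fit of the 18 tissue libraries over 10851 genes, both genes passed in all 3 comparisons and the 4 neighbours, with no count, could not be tested. Muscle over liver gave a log2 fold change of 1.27 ± 0.30 for mt-Cytb and 0.99 ± 0.19 for mt-Co1 (adjusted p = 0.000632 and 0.000103), where 66.4% of genes passed. Muscle over eWAT gave 2.75 ± 0.31 and 2.62 ± 0.20, where 67.4% passed. Liver over eWAT gave 1.48 ± 0.30 for mt-Cytb and 1.64 ± 0.20 for mt-Co1, where 61.6% passed. Scaled by library totals that last difference was 0.71 for mt-Co1 and still passed, but 0.57 for mt-Cytb (adjusted p = 0.0685), as the median of all genes moved from -0.07 to -0.996. For muscle over eWAT the values were then 1.67 and 1.80, both past the threshold, beside a median that moved from -0.35 to -1.32.

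The ratio of mt-Co1 to mt-Cytb within a library does not depend on how the library is scaled, and it split the tables. Per kb, mt-Co1 was 2.77 ± 0.123 times mt-Cytb in round spermatids (2.61 to 2.88), 0.995 ± 0.113 times in spermatozoa (0.868 to 1.18) and 0.849 ± 0.0449 times in morulae (0.798 to 0.92). On the log2 scale round spermatids exceeded spermatozoa by 1.48 and morulae by 1.71, and each difference had an exact two-sided permutation p = 0.00216 and an adjusted p = 0.00487 over 9 tests. The value 0.00216 is the smallest that the 924 arrangements of 6 against 6 libraries can give. Spermatozoa exceeded morulae by 0.22 (exact permutation p = 0.0108, adjusted p = 0.0162). That difference was 0.10 without the 3 LFD sperm libraries (exact permutation, adjusted p = 0.179). Of windows of 75 bases, 39.8% of mt-Co1 and 0% of mt-Cytb occur in a nuclear transcript, and the part of this in the ratio was not tested. Sperm reads were single-ended and the others paired-ended, so for sperm read layout and cell type cannot be told apart in this ratio either.

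In the 3′ libraries of the tissues mt-Co1 was a small fraction of mt-Cytb, 0.0883 ± 0.0423 in liver (0.0474 to 0.159), 0.0716 ± 0.013 in eWAT and 0.0642 ± 0.00865 in muscle. Counts of 3′ ends do not follow gene length, so these ratios per kb cannot be set against those of the Nextera libraries. None of the 3 pairs of tissues differed by the exact permutation test (adjusted p = 0.346, 0.346 and 0.509). The last window of mt-Co1 is shared with a nuclear transcript and that of mt-Cytb is not, and the part of this in the ratio was not tested. Counts of Gm29216, the copy of the mt-Co1 end, were 0 to 12 per tissue library, and those of Gm13340 were 15 to 546.

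**Figure D3:**
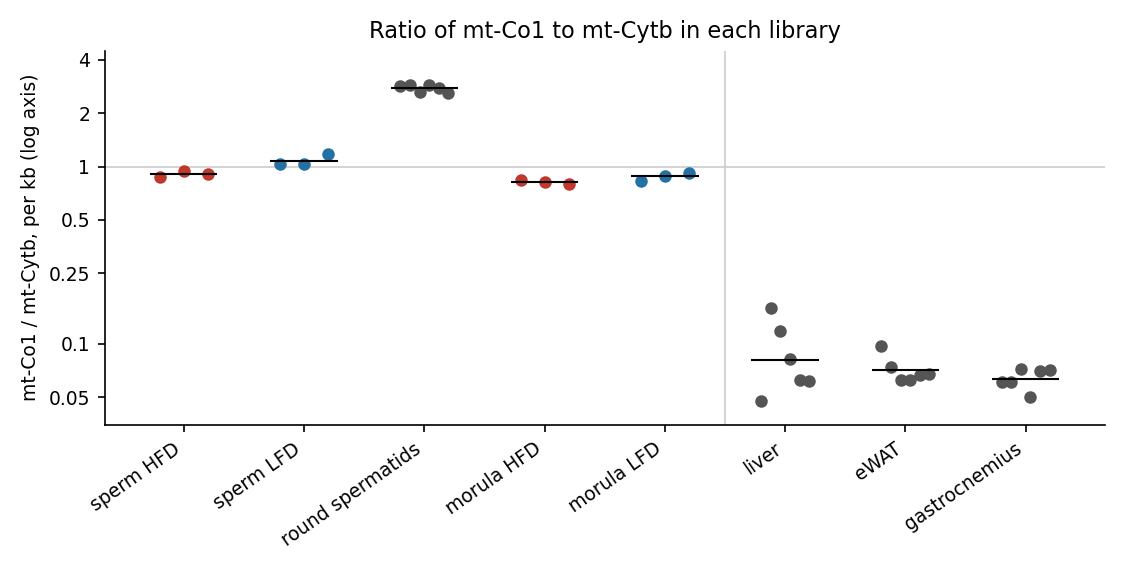
Ratio of mt-Co1 to mt-Cytb, both per kb, in each library (vertical log axis), with a bar at the geometric mean of each group. Round spermatids lie between 2.61 and 2.88, spermatozoa and morulae between 0.798 and 1.18, and the 3 tissues right of the line below 0.16. Tissue counts come from 3′ ends and do not follow gene length, so their level cannot be set against the others.

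Of the counts on the 13 mtDNA protein genes, the 6 members took 60.6% ± 1.04 in round spermatids, 45.6% ± 1.27 in spermatozoa and 35% ± 0.648 in morulae, and 9.1% to 10.6% on average in the 3 tissues. The 4 neighbours together took 1.33% to 1.76% of the members' counts in round spermatids, 0.521% to 1.46% in morulae and at most 0.00207% in spermatozoa. On the log2 scale of counts over those of mt-Co1 and mt-Cytb, this stretch was 0.74 higher in round spermatids than in morulae (exact permutation p = 0.00866, adjusted p = 0.0156). With the chromosome 1 copies added the difference was 0.07 and no longer passed (exact permutation, adjusted p = 0.738), the round spermatids at -5.34 to -5.10 lying inside the range of the morulae at -6.03 to -4.58.

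In spermatozoa the members that were counted had a higher share of the library on HFD. mt-Co1 stood at 13697, 14142 and 14293 CPM on HFD and at 7419, 11205 and 11992 on LFD. mt-Cytb stood at 10681, 11690 and 12058 CPM on HFD and at 5293, 7024 and 8616 on LFD. For both genes every HFD library lay above every LFD library, which held for 0.555% of the 8643 genes tested. That share was counted in CPM, where most genes were lower on HFD (median log2 fold change -1.82 with library totals). It therefore does not measure how rare such a separation is apart from that shift. The 6 members took 2.55% ± 0.0995 of counts on HFD and 1.72% ± 0.405 on LFD (n = 3 each, exact permutation p = 0.1, the smallest that 3 against 3 allows).

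The size of that difference moved with the scaling, and edgeR called neither gene. TMM factors were 0.442 to 0.716 on HFD and 1.52 to 2.58 on LFD. With TMM the log2 fold change in edgeR, HFD over LFD, was 2.13 ± 0.75 for mt-Co1 (adjusted p = 0.272) and 2.40 ± 0.73 for mt-Cytb (adjusted p = 0.236), beside a median of -0.07 over all genes. With library totals it was 0.46 and 0.72 (adjusted p = 0.363 and 0.169), beside a median of -1.82. Without the LFD library of 2560219 counts, which had the most epididymal marker counts and the lowest level of both genes, the values with TMM were 1.81 ± 0.65 and 2.10 ± 0.66 (adjusted p = 0.706 for each in edgeR), and the members' share of counts differed by 0.61 percentage points in place of 0.834. By edgeR 0 of 8643 genes passed (0%), and 13% (1122) had an unadjusted p under 0.05, mt-Co1 and mt-Cytb among them. DESeq2 called 221 of 10724 genes (2.06%), among them mt-Co1 (adjusted p = 0.00512) and mt-Cytb (adjusted p = 0.00131).

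Among the mtDNA protein genes the members took the same share on both diets to within the spread. Of the counts on mtDNA protein genes they took 45.6% ± 1.39 on HFD and 45.6% ± 1.44 on LFD (exact permutation p = 1). The 6 complex I genes of mtDNA that were tested had a median log2 fold change of 2.24, next to 2.26 for mt-Co1 and mt-Cytb. Within the library mt-Co1 was lower relative to mt-Cytb on HFD, at 0.868, 0.905 and 0.95 times mt-Cytb per kb, against 1.03, 1.04 and 1.18 on LFD. The groups did not overlap, and the difference of -0.25 on the log2 scale kept its direction without any 1 library (-0.29 to -0.19), with an exact permutation p = 0.1, the smallest possible. Other measures of the libraries differed by diet as well. All mtDNA genes together took 78.1% to 84.3% of counts on HFD and 43.5% to 64.7% on LFD, and 13007 to 16236 genes were detected on HFD against 17284 to 19547 on LFD, both without overlap. Epididymal epithelium markers summed to 1597 to 2648 CPM on HFD and 2488 to 23621 on LFD. The morula list, with Pou5f1, Nanog, Sox2 and Sall4 at 0 in all 6 libraries, summed to 31.3 to 69.7 CPM on HFD and 119 to 272 on LFD. The part of these in the differences was not tested.

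Nuclear genes for the same complexes showed no call in sperm. Of the listed nuclear subunits, 13 of 19 of complex IV, 8 of 9 of complex III and 14 of 18 of complex V had enough counts to test, with 0 called and median log2 fold changes of -0.49, -0.38 and -0.41, beside -0.07 over all genes. The smallest p values were those of Cox8a in complex IV (log2 fold change -1.37 ± 0.58, adjusted p = 0.327), Uqcrc2, a core subunit of complex III (-1.15 ± 0.60, adjusted p = 0.45), and Atp5g1, a source of the ATP synthase c subunit (-1.55 ± 1.04, adjusted p = 0.573). Of 36 assembly and mRNA-specific factors 17 were tested by edgeR and 0 called, the smallest p being that of Cox15, which makes the haem A of the oxidase (-1.47 ± 0.76, adjusted p = 0.439). No direction is given for these lists, since the median of all genes depended on the scaling as given above.

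In morulae all 6 members were counted, and mt-Co2, mt-Atp6 and mt-Co3 had fewer counts in every HFD library than in any LFD library, although none of these differences passed. The diet effects on mt-Co1, on mt-Cytb, on their ratio and on the members' share were not shown to differ between sperm and morulae (6 exact permutation tests of the difference, adjusted p = 0.246 to 0.325). mt-Atp6 had 550, 930 and 993 counts on HFD and 1477, 1494 and 1866 on LFD. mt-Co2 had 386, 462 and 589 counts on HFD and 755, 791 and 943 on LFD. mt-Co3 had 103, 120 and 141 counts on HFD and 199, 231 and 232 on LFD. For these 3 genes the groups did not overlap in CPM either, which held in this direction for 5.29% of the 13447 genes tested. mt-Atp8 had 273, 447 and 462 counts on HFD and 426, 502 and 569 on LFD, with overlap.

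The abundant members had 138988 to 150914 counts on HFD and 127739 to 143857 on LFD for mt-Co1, and 128890 to 135541 against 102829 to 124404 for mt-Cytb. In CPM the range of mt-Co1 was 11975 to 12713 on HFD and 10527 to 12211 on LFD, with overlap. That of mt-Cytb was 10921 to 11509 and 8475 to 10845, so that every HFD library lay above every LFD one, which held in this direction for 6.6% of genes tested. The LFD library of 12133872 counts had the lowest values of both genes, and without it the log2 fold change of mt-Co1 changed from 0.07 to -0.01.

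The log2 fold change, HFD over LFD, was -0.98 ± 0.19 for mt-Atp6, -0.82 ± 0.17 for mt-Co2 and -0.88 ± 0.21 for mt-Co3, each with an adjusted p = 0.456 in edgeR's quasi-likelihood test. It was -0.36 ± 0.19 for mt-Atp8 (adjusted p = 0.795), 0.07 ± 0.07 for mt-Co1 (0.922) and 0.17 ± 0.09 for mt-Cytb (0.795), beside a median of 0.01 over all genes. By edgeR 0 of 13447 genes passed (0%) and 6.38% had an unadjusted p under 0.05, among them these 3 of the 6 members. DESeq2 called 8 of 13036 genes (0.0614%), of which mt-Co2 is the only member (adjusted p = 0.0219). The log2 fold change of mt-Co2, mt-Atp6 and mt-Co3 was negative under all 4 scalings tried (TMM, RLE, library totals and TMM of nuclear genes). Leaving out each library in turn gave -0.99 to -0.65 for mt-Co2, -1.13 to -0.73 for mt-Atp6 and -1.01 to -0.75 for mt-Co3.

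Within the library, the stretch of 4 neighbours was 0.521%, 0.687% and 0.74% of the members' counts on HFD and 1.12%, 1.15% and 1.46% on LFD. The difference on the log2 scale of counts over those of mt-Co1 and mt-Cytb was -0.95, without overlap, with an exact permutation p = 0.1, the smallest possible. It lay between -1.05 and -0.80 without each library in turn, and at -1.07 with mt-Atp8 left out. The ratio of mt-Co1 to mt-Cytb overlapped between the diets, at 0.798 to 0.842 on HFD and 0.834 to 0.92 on LFD, with a log2 difference of -0.10 and an exact permutation p = 0.2.

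In morulae the chromosome 1 copies of mt-Co2, mt-Atp6 and mt-Co3 held more counts than the genes themselves and were lower on HFD as well. Gm28661 had 802 to 916 counts on HFD and 1149 to 1452 on LFD, so that mt-Co2 made up 30.1% to 42.2% of the sum of gene and copy. Gm10925 had 1804 to 2709 counts on HFD and 3134 to 4864 on LFD, and mt-Atp6 made up 23.4% to 32% of its sum. Gm28437 had 154 to 177 counts on HFD and 235 to 257 on LFD, and mt-Co3 made up 40.1% to 49.4%. No HFD library reached the lowest LFD library for any of these copies, with log2 fold changes of -0.60 ± 0.12 for Gm28661, -0.82 ± 0.16 for Gm10925 and -0.55 ± 0.18 for Gm28437 (adjusted p = 0.456, 0.456 and 0.688 in edgeR's quasi-likelihood test).

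The copies of mt-Co1 had lower counts on HFD too, although mt-Co1 itself overlapped between the diets. Gm29216 had 834 to 965 counts on HFD and 1151 to 1390 on LFD, and Gm13340 on chromosome 2 had 704 to 1383 and 1850 to 2199. Summing each member with its chromosome 1 copy before the fit, an alternative added after the data had been seen, gave log2 fold changes of -0.68 ± 0.12 for mt-Co2, -0.87 ± 0.16 for mt-Atp6 and -0.70 ± 0.16 for mt-Co3, with adjusted p = 0.391, 0.391 and 0.456 in edgeR. Which of the reads came from mtDNA and which from chromosome 1 cannot be told apart from these counts.

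**Figure D4:**
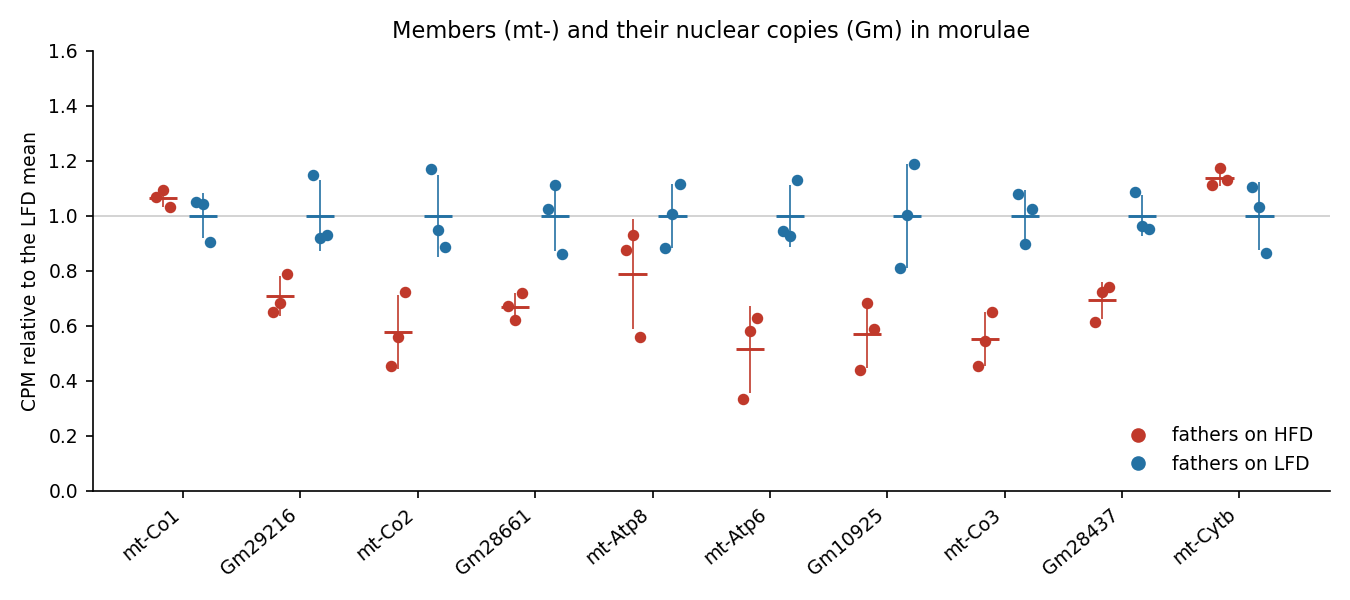
CPM of each member (mt-) and of its chromosome 1 copy (Gm) in the 6 morula libraries, as a ratio to the LFD mean (vertical axis, from 0), with bars at the mean and lines of ± 1 SD (n = 3 per diet). The genes mt-Co2, mt-Atp6 and mt-Co3 and all 4 copies lie lower on HFD without overlap, as do 5.29% of all genes tested. By contrast mt-Cytb lies higher on HFD without overlap, as do 6.6% of genes tested, and mt-Co1 and mt-Atp8 overlap between the diets.

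In spermatozoa the chromosome 1 copies had counts although the members had almost none. Gm28661 had 22 to 65 counts per library, Gm10925 37 to 93, Gm28437 34 to 90 and Gm29216 48 to 152. All 4 stood higher on HFD in edgeR's TMM fit, as mt-Co1 and mt-Cytb did, with log2 fold changes of 2.15 to 2.45 and adjusted p = 0.232 each. In round spermatids the member made up 50.7% to 61.1% of the sum for mt-Co2, 45.1% to 53.5% for mt-Atp6 and 56.1% to 61.9% for mt-Co3.

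Among nuclear genes for the same complexes, no subunit was called between the diets in morulae. By edgeR 0 were called of 14 tested subunits of complex IV, 9 of complex III and 17 of complex V, with median log2 fold changes of -0.11, -0.06 and -0.01. The smallest p values were those of Cox6c (-0.18 ± 0.10, adjusted p = 0.803), Uqcrb (-0.24 ± 0.14, adjusted p = 0.807) and Atp5e (-0.28 ± 0.17, adjusted p = 0.834), structural subunits of the 3 complexes. Of 33 assembly and mRNA-specific factors tested, 4 (Cox18, Atpaf1, Sco1 and Cox17) had an unadjusted p under 0.05, beside 6.38% of all genes, and 0 were called in the edgeR fit. The smallest p was that of Cox18, which inserts a part of the mt-Co2 protein into the inner membrane, at 19.4 to 22.4 CPM on HFD and 9.68 to 14.4 on LFD (log2 fold change 0.85 ± 0.21, adjusted p = 0.456). Atpaf1, an assembly factor of ATP synthase, stood at 30.8 to 39.99 CPM on HFD and 18.7 to 25.1 on LFD (0.65 ± 0.18, adjusted p = 0.533 in edgeR), and is named with the other 3 after its values were seen. The 7 complex I genes of mtDNA had a median of 0.11. The members' own median was -0.59, with 3 lower and none higher at an unadjusted p under 0.05. Leukocyte markers summed to 2.72 to 3.62 CPM on HFD and 5.23 to 6.91 on LFD, with 3 of 8 markers at 0 in all 6 libraries, and their part in these differences was not tested.

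**Figure D5:**
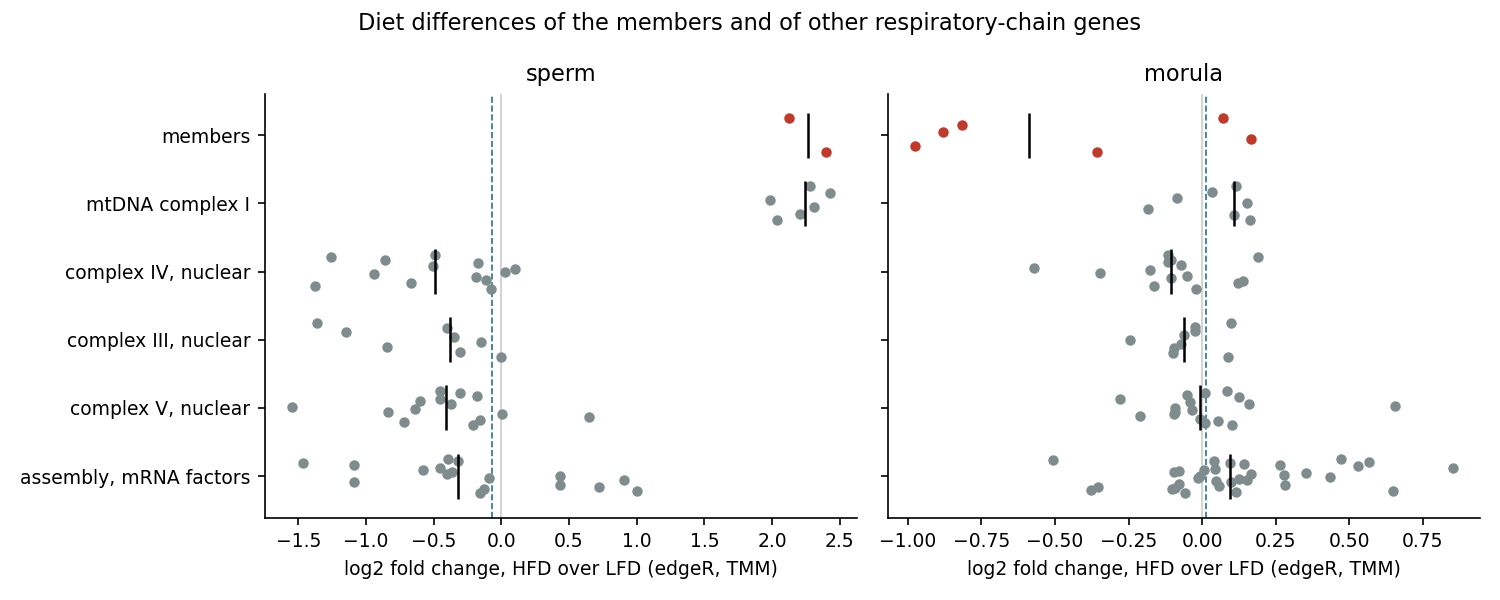
Log2 fold change, HFD over LFD, from the edgeR fits with TMM scaling in spermatozoa and morulae (horizontal axes, of different range) for each tested gene of 6 lists. The black bars are list medians and the dashed line the median of all genes, and in spermatozoa both mtDNA lists lie above 1.9 while in morulae 4 of the 6 members lie below 0.

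The genes most like each member over all 36 libraries, by Pearson's r of log2(CPM + 1) among 14510 genes, are given as a description, since libraries of a table are not independent points. For mt-Co1 they were mt-Nd6 (r = 0.948), Gm10222 (0.94) and Cited1 (0.913), and for mt-Cytb mt-Nd1 (0.967), Gm11407 (0.926) and the methionine tRNA gene mt-Tm (0.907). For the 4 neighbours they were nuclear genes: Arl14epl, Zfp42 and Rps6 for mt-Co2 (r = 0.992 to 0.996), Lypd5, AU015836 and Trim71 for mt-Atp8 (0.995 to 0.997), Gm14139, Pgam1 and Ccnb1ip1 for mt-Atp6 (0.993 to 0.997), and Gm364, Fkbp6 and Zfp981 for mt-Co3 (0.992 to 0.994).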

How the data were processed

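RNA-seq libraries were trimmed with BBDuk, mapped with STAR to GRCm38 and counted per gene with featureCounts in the software AIR, per the study's methods. The authors deposited raw counts, whole numbers that were used as deposited. Versions and the handling of strand and of reads mapping to several places are not given in the sources used here. Column names give a group but not which sample, so libraries are named by group and total count. The members and lists were chosen with earlier results of these data known.

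Genes were kept by filterByExpr (minimum count 10), scaled by TMM and tested by the two-sided quasi-likelihood test of edgeR 4.0.16 in R 4.3.3, with Benjamini-Hochberg adjustment over all genes tested and a threshold of 0.05. The SE of a log2 fold change was derived from the F statistic. Sperm and morula were each fitted alone (HFD over LFD), and the 3 tissues and the 3 Nextera tables in a joint fit each. DESeq2 1.42.0, RLE scaling, library totals, TMM of nuclear genes, no filter, a per-gene exact permutation test on log2(CPM + 1) and leaving out each library were alternatives. Summing members with their copies, and leaving out doubted libraries, were alternatives chosen after seeing the data. Library-level shares and ratios were tested by exact two-sided permutation in SciPy 1.17.1 (Python 3.11.15). The stretch ratio needed a pseudocount of 0.5 where sperm libraries had a count of 0, and had no value in the tissues, so the family of tests between tables is 9 and not the 12 intended. Copies were found with BLAST 2.17.0 against GENCODE M21 transcripts (GRCm38), at an identity of 95% or more across 80% or more of the shorter sequence. Scripts were tested on simulated data.

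All 6 members are named with their values. Of each nuclear list the gene with the smallest p is named, since none was called, and 3 genes are named as most like each member (a mean of at least 10 CPM in at least 1 table). Gene symbols were found for 54723 of 54838 identifiers in 4 tables, 55141 of 55487 for morula and 51633 of 51912 for round spermatids. Total counts ran from 369772 to 31056066 per library, and a count of 0 allows 3 counts, for counting error only. No 2 libraries of a group agreed within sampling noise (chi-square per degree of freedom at least 3.50). Figures were drawn with matplotlib 3.10.9.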

Additional observations from a re-analysis of the deposited data

Results flagged for a closer look

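In eWAT the ratio of mt-Co1 to mt-Cytb per kb was 0.0967 in the library of 1338149 counts, the shallowest of the table, against 0.0621 to 0.0739 in the other 5 libraries. Its gap to the next library was 0.657 of the whole range of 6 libraries, more than Dixon's criterion allows. It was 1 of 21 sets of 6 libraries looked at in this way, and chance alone flags about 1 in 20. In that library mt-Co1 stood at 747 CPM, the highest of the table, and mt-Cytb at 5724 CPM, the lowest.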

How the results depend on the processing

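In sperm DESeq2 called 2 members where edgeR called 0, and the number of genes called among all was 0 with TMM, RLE scaling and TMM of nuclear genes, 221 with DESeq2, 41 with no filter and 3266 with library totals, 1 higher and 3265 lower. In morulae DESeq2 called 1 member and edgeR with no filter called 2, mt-Co2 and mt-Atp6, while among all genes these called 8 and 63, against 0 in the edgeR fit. Without any 1 library edgeR called 0 members in either experiment, and 2 genes in all without the morula HFD library of 11776603 counts. Without the morula LFD library of 12133872 counts mt-Co1 reversed to -0.0122. With library totals, and again with the per-gene exact permutation test, only 1 member passed between liver and eWAT. In morulae over sperm, mt-Cytb reversed to 0.19 with library totals, 0.20 without the 3 HFD sperm libraries and 0.24 by the per-gene exact permutation test, where mt-Co1 reversed to 0.0158. The ratio of mt-Co1 to mt-Cytb between sperm and morulae was 0.0965 without the 3 LFD sperm libraries and no longer passed. The sums of each member with its chromosome 1 copy were fitted with TMM only. Round spermatids over sperm then reversed to -1.16 for mt-Co2, -1.79 for mt-Atp6 and -1.77 for mt-Co3, and morulae over sperm to -0.55 for mt-Co3. With the copies added the stretch ratio of round spermatids over morulae was 0.0725 and no longer passed. The cause of the other changes was not tested. From round spermatids to morulae no filter gave 27642 calls against 17614. With library totals the calls, higher and lower, were 1227 and 7357 against 2853 and 4465 for muscle over eWAT, 1406 and 6995 against 3138 and 3542 for liver over eWAT, 7596 and 5200 against 6267 and 7046 for morulae over sperm, and 13086 and 2497 against 10559 and 4766 for round spermatids over sperm. The share of the members in sperm differed by 0.834 percentage points between the diets against all counts, by 0.0131 against the mtDNA protein genes, and by 8.93 per 100 counts outside mtDNA. Among summary results 131 recomputed values were scored as kept, 5 as moved and 2 as no longer passing. Kept meant the same direction and side of the threshold or, for numbers of members called, a change within a set factor. By that factor 4 members called in place of 6 for morulae over sperm were scored as kept. Tests of 3 against 3 libraries, with a smallest p of 0.1, could not change side. Among values of single genes 258 kept direction and side, 5 newly passed, 6 no longer passed and 9 reversed.

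A replicate block on the numbers of the sperm columns, of which 2 occur on both diets, called 0 members and 2 genes, with log2 fold changes of 2.66 for mt-Co1 and 2.95 for mt-Cytb (adjusted p = 0.955 and 0.94 in edgeR). The deviations of same-numbered libraries from their group means correlated at -0.15 and 0.11, so the numbers are not taken to pair the samples. No paired analysis was possible for morulae because the diets share no number, nor for the other tables because their columns carry none. In sperm the stretch ratio differed by -0.68 with a pseudocount of 0.5 (exact permutation p = 0.5), on 3 counts in all. Zeros in the shallowest tissue library allow up to 8.11 CPM.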
